A study of Rattus norvegicus with 46 samples.

Results

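The proteasome genes of the rat frontal lobe are described here after a dose of chlorpyrifos, an insecticide of the organophosphate class that acts by blocking acetylcholinesterase once metabolised. They are all genes whose array probe sets carry 1 symbol starting with Psma, Psmb, Psmc, Psmd or Psme. The rule found 38 genes among 10411 with a single symbol, on 41 probe sets, and the probe set with the highest mean was used for each. Of the 38, 36 encode proteasome subunits, chaperones of their assembly or activators, while Psmc3ip and Psme3ip1 encode interacting proteins that share only the prefix. After a filter that left out the dimmest 30% of probe sets, 37 remained among 11106, and Psmb9 was the member left out.

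In the study, adult male F344 rats, an inbred strain, aged 11 to 12 weeks, received vehicle or chlorpyrifos once, and a piece of about 30 mg of frontal lobe was taken after 96 hours. There were 3 separate experiments, called A, B and C, and each array was taken to stand for 1 rat, as the titles do not say. In A the arrays used were those of 3 vehicle rats, 3 rats given 1 mg/kg, 5 given 10 mg/kg and 3 given 50 mg/kg. In B they were those of 4 vehicle rats, 3 given 0.5 mg/kg, 1 given 5 mg/kg and 3 given 30 mg/kg, and in C of 3 vehicle rats, 4 given 1 mg/kg, 3 given 5 mg/kg and 4 given 10 mg/kg. These are 39 of 46 arrays, and the 7 others shared no order of probe sets with them (correlations between -0.0068 and 0.00253) and were left out, among them both 30 mg/kg arrays of experiment C. The vehicle arrays of B carry a second line naming 1 mg/kg in their labels, and their title was followed. Neither the vehicle nor the route is given in the sources used here.

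The proteasome is the cell's main machine for degrading proteins tagged with ubiquitin. Its core particle stacks rings of alpha subunits, which form the gate, around rings of beta subunits, of which Psmb5, Psmb6 and Psmb7 carry the standard active sites. Under interferon and inflammation these are replaced in new particles by Psmb8, Psmb9 and Psmb10, in that order, forming the immunoproteasome, whose peptides are presented on MHC class I, and the PA28 activator of Psme1 and Psme2 is induced with them. The regulatory particle holds a ring of ATPases (Psmc genes), which unfolds substrates, and a lid and base of non-ATPase subunits (Psmd genes), which recognise ubiquitin and remove it. In neurons the proteasome also turns over synaptic proteins. When proteasomes are inhibited, the transcription factor Nfe2l1 raises subunit genes together through antioxidant response elements.

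Promoter windows are shown for Psmb5, a standard active subunit, and for the 3 inducible subunits, because the results below contrast them. They are RefSeq sequences of build GRCr8, from 250 bases before to 50 after the gene start, written on the gene's strand, and capitals mark the matches listed after them.
Psmb5 (chr15:32047330-32047629, minus strand): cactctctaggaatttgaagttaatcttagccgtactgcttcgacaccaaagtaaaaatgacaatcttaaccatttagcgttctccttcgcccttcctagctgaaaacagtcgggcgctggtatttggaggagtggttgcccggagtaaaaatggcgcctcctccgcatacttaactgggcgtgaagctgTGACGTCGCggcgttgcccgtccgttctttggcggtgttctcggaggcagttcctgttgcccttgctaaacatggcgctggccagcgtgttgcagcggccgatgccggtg
Psmb8 (chr20:4656982-4657281, minus strand): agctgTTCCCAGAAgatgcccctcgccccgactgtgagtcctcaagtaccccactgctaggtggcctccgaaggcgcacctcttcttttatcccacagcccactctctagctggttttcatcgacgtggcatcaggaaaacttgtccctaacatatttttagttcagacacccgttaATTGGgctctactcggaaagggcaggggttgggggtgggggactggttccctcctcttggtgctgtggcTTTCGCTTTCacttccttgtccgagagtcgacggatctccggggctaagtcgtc
Psmb9 (chr20:4668750-4669049, plus strand): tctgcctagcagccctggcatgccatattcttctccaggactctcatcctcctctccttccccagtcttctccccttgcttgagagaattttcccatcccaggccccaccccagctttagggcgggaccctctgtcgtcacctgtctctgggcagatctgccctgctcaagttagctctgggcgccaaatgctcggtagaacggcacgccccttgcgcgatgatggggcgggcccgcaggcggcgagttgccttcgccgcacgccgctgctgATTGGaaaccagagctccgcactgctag
Psmb10 (chr19:50743243-50743542, minus strand): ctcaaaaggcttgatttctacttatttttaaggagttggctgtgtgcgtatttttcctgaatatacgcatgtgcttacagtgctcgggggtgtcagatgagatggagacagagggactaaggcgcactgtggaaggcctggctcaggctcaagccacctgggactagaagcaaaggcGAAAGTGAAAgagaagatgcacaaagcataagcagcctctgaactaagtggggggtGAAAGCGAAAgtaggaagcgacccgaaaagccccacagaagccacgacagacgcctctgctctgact

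The capitals in Psmb5 are 1 match of TGACNNNGC, the core of the antioxidant response element, starting 60 bases before the gene start. Psmb8 holds TTCNNNGAA, the core of a STAT site, 245 bases before the start, CCAAT on the other strand 73 bases before it, and a core of the interferon-stimulated response element, which is GAAA, any 2 bases and GAAA, on the other strand 4 bases before it. Psmb10 holds that core on the gene strand at 73 and at 17 bases before the start. Psmb9 holds CCAAT on the other strand at 22 bases after the start and no match of the other motifs in this window. On the chromosome, Psmb9 lies 408 bases from Tap1, which encodes a subunit of the MHC class I peptide transporter.

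A window was found for 36 of the 38 genes, all except Psma7 and Psmd6, and both strands were searched. The interferon-stimulated core was present in 6 of 36 windows (16.7%), those of Psma4, Psmb3, Psmb8, Psmb10, Psmd7 and Psme2, against 3.92% of all 33469 windows. TGACNNNGC was present in 7 (19.4%), those of Psma3, Psmb2, Psmb5, Psmd1, Psmd3, Psmd9 and Psme4, against 12.1% of all windows. CCAAT stood in 20 (55.6%) against 37.5%, TATAAA, the TATA box, in 4 (11.1%) against 14.2%, and TTCNNNGAA in 3 (8.33%) against 8.87%. The motifs do not overlap one another within the printed windows, and a match is a run of letters, not a bound site.

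Signals are given as normalised log2 intensity. Array medians before normalisation lay between 112 and 286, with the lowest in the B rat given 5 mg/kg and all others at 229 or above. The 3'/5' signal ratio of the beta-actin control probes, a measure of RNA integrity, was 4.72 in animal 1 at 1 mg/kg of experiment C, was 1.66 to 2.15 in the vehicle animals of experiment B, and was 1.32 to 1.61 in the dosed animals of B. Neuron markers were well measured (Snap25 13.40, Slc17a7 12.27). Pmch, a hypothalamic peptide gene, was higher than vehicle at 50 mg/kg (2.24 ± 0.38 SE, adjusted p = 0.0156 in limma). All 3 of 3 hypothalamus markers kept lay above vehicle there (median 3.2). The mean of the hypothalamus list ran from 7.51 to 11.07 in those rats. It also reached 9.87 at 1 mg/kg in A and 9.91 in the vehicle rats of C, so high values were not confined to 50 mg/kg. Since these are pieces of tissue, fewer cells of a type and less RNA per cell cannot be told apart.

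The standard subunits varied little between rats of one group. The standard deviation (SD) within groups had a median of 0.14 over the 37 genes against 0.205 over the 11106 probe sets. Among probe sets with a mean of 10 or more, where the array measures best, it was 0.131 for 21 proteasome genes against 0.155 for 2278 probe sets. The smallest was that of Psmd6, a lid subunit, at 0.0737, and Psmb4, a structural beta subunit, followed at 0.0762. Larger values than 0.205 belonged to the 3 inducible beta subunits, at 0.229 for Psmb8, 0.248 for Psmb10 and 0.692 for Psmb9, and to Psme1, at 0.259. Besides these, Psma1 (0.236) and Psmd1 (0.229) exceeded it. The probe sets kept had a median signal of 8.74, and the inducible beta genes lay lower, from 6.54 to 8.35. Psmb9 was not among the probe sets kept. Over all 15866 probe sets, at a median signal of 8.01, the median SD was 0.244, above that of Psmb8. The part of signal level in these SDs was not tested.

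**Figure D1:**
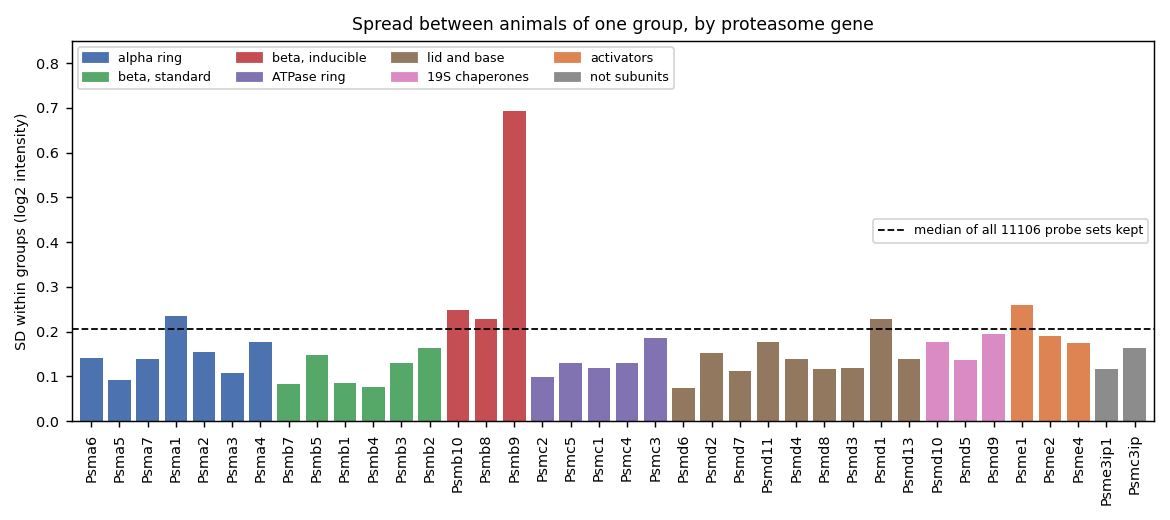
SD of log2 intensity between animals of one experiment and dose, pooled over groups, for the 38 proteasome genes, coloured by subunit class. The dashed line is the median of all probe sets kept (0.205), and most bars lie below it while those of Psmb9 (0.692), Psme1, Psmb10, Psmb8, Psma1 and Psmd1 lie above. The line is not matched for signal, and Psmb9 is not among the probe sets kept.

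By class, the mean signal of a gene's probe set ran from 9.51 (Psma4) to 11.21 (Psma6) in the 7 alpha ring genes and from 10.43 (Psmb2) to 11.40 (Psmb7) in the 6 standard beta genes. It ran from 6.54 (Psmb9) to 8.35 (Psmb10) in the 3 inducible beta genes, from 10.04 (Psmc3) to 11.13 (Psmc2) in the 5 ATPase genes and from 9.09 (Psmd13) to 10.82 (Psmd6) in the 9 lid and base genes. The 3 chaperones of regulatory particle assembly lay between 8.27 (Psmd9) and 9.47 (Psmd10), the activators between 8.21 (Psme4) and 9.01 (Psme1), and the genes of no subunit at 8.08 (Psmc3ip) and 9.70 (Psme3ip1). Probe sets bind with different strength, so these signals do not rank the transcripts.

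The main question was whether proteasome genes differed from vehicle at any dose, from a limma fit that also held a term for experiment. No proteasome gene passed an adjusted p of 0.05 at any dose, and the genes stayed close to vehicle as a group. Called were 0 of 37 at 0.5, 1, 5, 10 and 30 mg/kg, where 0% of all 11106 probe sets were called, and 0 of 37 at 50 mg/kg, where 0.018% were. The F test of any dose and the slope on log2(dose + 1) called 0 of 37 too, against 0% of all probe sets. The median log2 change over the 37 genes was -0.016, -0.021, -0.01, 0.004, -0.001 and 0.042 at 0.5, 1, 5, 10, 30 and 50 mg/kg, against 0.004, -0.005, 0, 0.001, 0.006 and 0.006 over all probe sets. The size of change, sign aside, had a median of 0.038 at 10 mg/kg against 0.064 over all probe sets, and of 0.099 at 50 mg/kg against 0.113.

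At an unadjusted p under 0.05, the proteasome genes numbered 1 at 0.5 mg/kg (7.62% of all probe sets met this), 0 at 1 (2.54%), 1 at 5 (2.48%), 0 at 10 (2.68%), 2 at 30 (9.25%) and 2 at 50 mg/kg (7.99%). They numbered 2 in the F test (6.19%) and 3 in the slope (7.66%). As shares of 37 these ran from 0% to 8.11%, and they exceeded the background only at 5 mg/kg (2.7%) and in the slope (8.11%), in each case by less than 1 gene. Every 95% interval at 10 mg/kg lay between -0.45 and 0.27 on the log2 scale, and every one at 50 mg/kg between -0.49 and 0.57, so smaller changes could be missed. In data simulated at the size of the 50 mg/kg comparison, 44% of changes of 0.5 and 86% of changes of 1 on the log2 scale were called. There 100 changes of each size were placed in random probe sets, each with its own SD. The adjusted p depends on how many probe sets change, so these rates are not those of the proteasome genes here.

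**Figure D2:**
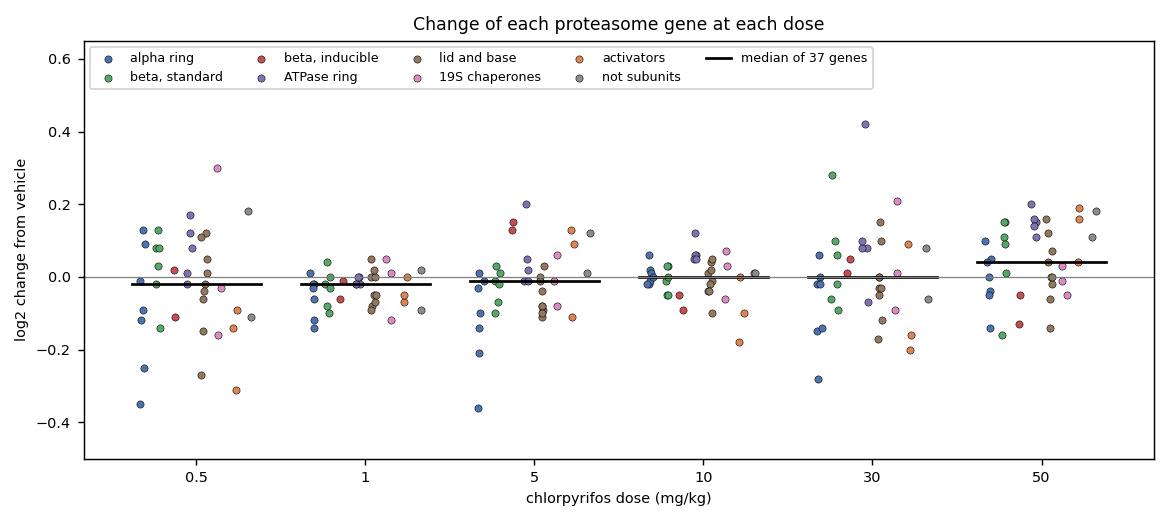
Log2 change from vehicle (vertical axis) of each of the 37 proteasome genes kept, at each dose of chlorpyrifos in mg/kg (horizontal axis), coloured by class, with the median as a black bar. Medians lie between -0.021 and 0.042, the points are tightest at 1 and 10 mg/kg, and the highest point is Psmc3 at 30 mg/kg (0.42).

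In the alpha ring, Psma1 stood lowest at 5 mg/kg. Its signal was 9.58, 9.85 and 9.27 in the 3 rats of experiment C at that dose and 10.25, 10.01 and 9.99 in their vehicle rats. In experiment B the 1 rat at 5 mg/kg gave 10.46 and the 4 vehicle rats 10.35 to 10.48. So the groups did not overlap in C, while in B the rat lay inside the vehicle range. The pooled difference was -0.36 ± 0.14 (SE, adjusted p = 1 in limma), and within C it was -0.52 (adjusted p = 0.692). Without experiment C it was 0.03. Of the 7 alpha genes, 6 had a fitted value below vehicle at 5 mg/kg, from -0.36 to 0.01 over the class, with a median of -0.1.

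In the beta ring, Psmb3, a structural subunit, gave 10.68, 10.66 and 10.93 at 30 mg/kg against 10.20, 10.62, 10.61 and 10.41 in the vehicle rats of experiment B. The lowest dosed rat lay just above the highest vehicle rat. The pooled difference was 0.28 ± 0.10 (adjusted p = 0.397 in limma). Psmb7, which carries the trypsin-like site, gave 11.17, 11.16 and 11.26 at 50 mg/kg against 11.27, 11.45 and 11.38 in experiment A. All 3 dosed rats lay below all 3 vehicle rats, by 0.01 at the closest, with a difference of -0.16 ± 0.07 (adjusted p = 0.54 in limma). Psmb5, the chymotrypsin-like subunit, differed by 0.06 ± 0.12 at 30 and 0.09 ± 0.12 at 50 mg/kg, with intervals of -0.18 to 0.29 and -0.15 to 0.32.

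In the ATPase ring, Psmc3, which encodes the subunit called Rpt5, gave the smallest p of all proteasome genes at any dose. Its signal was 10.23, 10.09 and 10.35 at 30 mg/kg and 9.61, 9.93, 9.77 and 9.75 in the vehicle rats of experiment B. The groups did not overlap, and the vehicle rats of A (9.64 to 10.19) and C (10.01 to 10.22) reached into the dosed range. The difference was 0.42 ± 0.14 (interval 0.14 to 0.70, adjusted p = 0.304 in limma), and within B alone 0.46 (adjusted p = 0.227). The actin ratio of the B vehicle rats lay above that of every dosed B rat, and with this ratio in the fit the difference was 0.33 (adjusted p = 0.289). Markers of the striatum, the neighbouring region, were lower at 30 mg/kg in 11 of 11 (median -0.85), and with their mean in the fit the difference was 0.47 (adjusted p = 0.207).

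All 5 ATPase genes had a fitted value above vehicle at 50 mg/kg, from 0.11 for Psmc5 to 0.20 for Psmc3, with a median of 0.15 against 0.006 over all probe sets. So did 3 of 3 activators (median 0.16), 5 of 6 standard beta genes (0.1) and 2 of 2 interacting genes (0.14). In the alpha ring 3 of 7 did, in the lid and base 5 of 9, in the inducible beta genes 0 of 2 and in the chaperones 1 of 3. At 10 mg/kg all 5 ATPase genes were above vehicle too, with a median of 0.06 against 0.001, though 3 of 5 within A and 4 of 5 within C. At 0.5, 1, 5 and 30 mg/kg, 4, 1, 3 and 4 of the 5 were above vehicle, with medians of 0.08, -0.02, 0.02 and 0.08, and at 1 mg/kg within C 0 of 5 were. Psmc2 gave 11.21, 11.06 and 11.20 at 50 mg/kg against 10.99, 10.85 and 11.15 in experiment A, so that the groups overlapped, and a difference of 0.16 ± 0.08 (adjusted p = 0.617 in limma). None of the 5 passed, and at 10 mg/kg the smallest p was that of Psmc5 (0.12 ± 0.07, adjusted p = 0.999 in limma). At 50 mg/kg all 5 lay above vehicle with scaling to equal medians only too, with a median of 0.11. A floor at 16 and log2(value + 32) left the median at 0.15, but these can hardly change signals as high as those of the ATPase genes. Without the arrays labelled as a first repeat, 4 of 5 were above vehicle at 10 mg/kg and the median was 0.02. At 50 mg/kg the striatum markers were above vehicle in 11 of 11 (median 0.58), and with their mean in the fit the ATPase median stayed at 0.15. Also at this dose, 3 of 3 hypothalamus and 7 of 8 astrocyte markers (median 0.20, 2 with an unadjusted p under 0.05) were above vehicle, and the neuron gene Slc17a7 stood at -0.77 ± 0.25 (adjusted p = 0.345 in limma). Their part in the ATPase values was not tested.

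**Figure D3:**
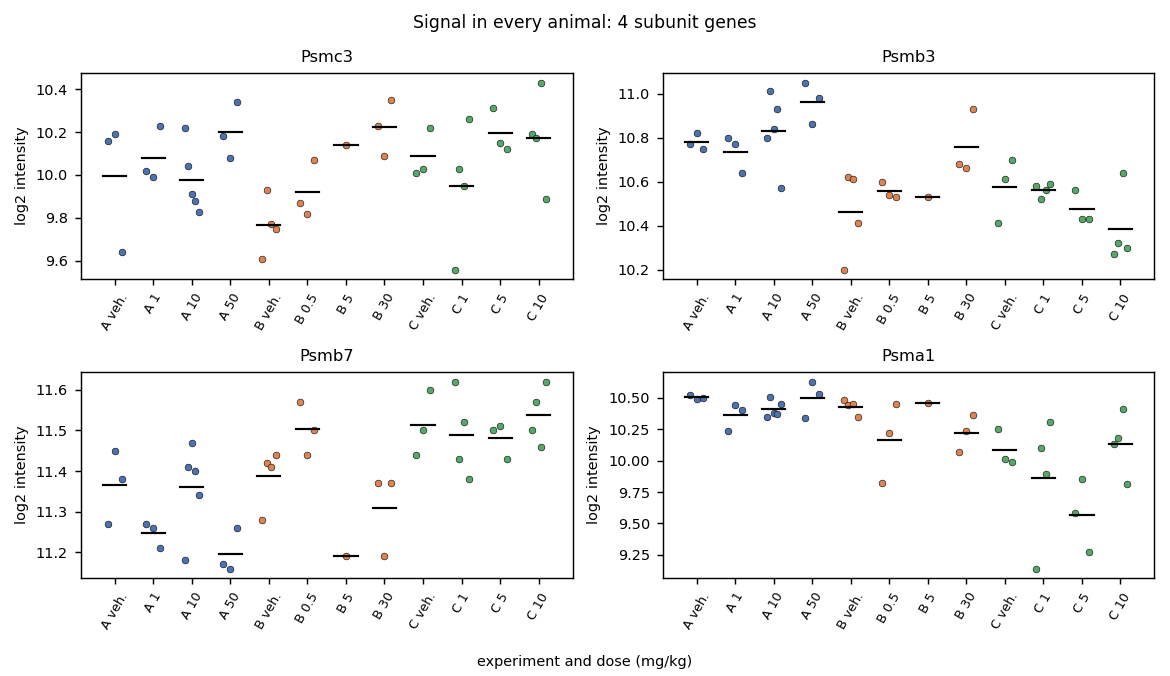
Log2 intensity (vertical axes) of Psmc3, Psmb3, Psmb7 and Psma1 in each of the 39 rats, by experiment and dose in mg/kg (horizontal axes), with group means as bars; blue is experiment A, orange B and green C. Psmc3 and Psmb3 at 30 mg/kg lie above the B vehicle rats, Psmb7 at 50 mg/kg lies below the A vehicle rats, and Psma1 is lower in C than in A or B.

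In the lid, base and chaperones, the 9 lid and base genes ran from -0.17 to 0.15 at 30 mg/kg and from -0.14 to 0.16 at 50 mg/kg. Psmd9, a chaperone of the ATPase ring, had the smallest p at 0.5 mg/kg, at 8.46, 8.23 and 8.36 against 7.56, 8.02, 8.33 and 8.19 in experiment B. The ranges overlapped, the lowest vehicle rat stood apart, and the difference was 0.30 ± 0.14 (adjusted p = 0.637 in limma). Without each array in turn it ran from 0.16 to 0.37.

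Of the inducible genes and PA28, Psmb8 differed by 0.01 ± 0.18 at 30 and -0.13 ± 0.18 at 50 mg/kg, with intervals of -0.36 to 0.37 and -0.49 to 0.23. Psmb10 differed by 0.05 ± 0.17 and -0.05 ± 0.17. The activator subunit Psme1 differed by -0.16 ± 0.19 and 0.19 ± 0.19, and its partner Psme2 by 0.09 ± 0.13 and 0.04 ± 0.13, at the same doses. All adjusted p lay at 0.862 or above in limma. Psmb9 was too dim for the fit. Its signal ranged from 5.32 to 7.83 over the 39 rats, and at 50 mg/kg it was 6.24, 6.52 and 6.49 against 6.79, 5.39 and 7.65.

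Within single experiments no proteasome gene was called at any dose (0 of 37), against 0.009% of all probe sets at 10 mg/kg in A, 0.036% at 50 mg/kg in A, 0.018% at 5 mg/kg in B and 0% at the others. The 5 mg/kg group of B is 1 rat, so its comparison takes the spread from the other groups. At an unadjusted p under 0.05 the genes numbered 0 at 1 (3.21% of all), 0 at 10 (2.89%) and 1 at 50 mg/kg (9.56%) in A, 2 at 0.5 (6.68%), 3 at 5 (7.21%) and 3 at 30 mg/kg (10.2%) in B, and 0 at 1 (6.69%), 1 at 5 (6.52%) and 0 at 10 mg/kg (6.63%) in C. Group ranges that did not overlap were counted too. They were 3 of 37 at 1 mg/kg in A, all lower (Psma1, Psmb2 and Psmb7), against 10.6% of all probe sets in either direction. At 10 mg/kg in A there were 0 (3.74%), and at 50 mg/kg in A 2, Psmb3 higher and Psmb7 lower (17.3%). In B they were 2 at 0.5 mg/kg, Psmd8 and Psme3ip1, both higher (8.31%), and 2 at 30 mg/kg (10.8%). In C they were 1 at 1 mg/kg, Psme1 lower (4.64%), 3 at 5 mg/kg, Psmd3 higher and Psma1 and Psma7 lower (11.5%), and 2 at 10 mg/kg, Psmd3 higher and Psme1 lower (5.95%). As a share of 37, each count lay below that of all probe sets.

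The doses of 1 and 10 mg/kg were given in both A and C, so the difference of the effect could be tested. It passed in 0 of 37 genes at either dose, against 0% of all probe sets, and 1 gene had p under 0.05 at each dose (7.35% and 6.62% of all). These were Psme1 at 1 mg/kg, at 0.61 ± 0.28 for A minus C (adjusted p = 0.645 in limma), and the lid gene Psmd8 at 10 mg/kg, at -0.30 ± 0.13 (adjusted p = 0.722). Psme1 in A was 9.10, 9.39 and 9.01 at 1 mg/kg against 9.04, 8.41 and 9.35 in vehicle rats. In C it was 8.85, 8.68, 9.0 and 9.11 against 9.27, 9.26 and 9.32. The A groups overlapped and the C groups did not.

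The experiments were also compared with each other. Among vehicle rats, the F test over the 3 experiments called 0 of 37 proteasome genes (7.8% of all probe sets), and 6 had p under 0.05 (22.6% of all). By pairs, 1 of 37 was called for C against B (10.3% of all), 0 for C against A (1.59%) and 0 for B against A (0.117%). At an unadjusted p under 0.05 these pairs held 7 (25.3% of all), 7 (17.7%) and 2 (8.71%). The called gene was Psmb8, which makes the inducible chymotrypsin-like subunit. Its vehicle signals were 7.37, 7.31 and 7.86 in A, 6.93, 7.03, 7.42 and 7.36 in B and 7.47, 8.30 and 7.62 in C. Each C rat lay above each B rat, with a difference of 0.61 ± 0.18 (adjusted p = 0.0246 in limma).

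The call on Psmb8 rests on few rats. The adjusted p was 0.239 without vehicle animal 2 of experiment C, which gave the 8.30, was 0.0895 and 0.053 without vehicle animals 1 and 2 of B, and was 0.0515 with the actin ratio in the fit. Of 11 microglia markers, 8 were higher in C than in B vehicle rats (median 0.31), their mean over 14 markers being 8.34 to 8.96 in C and 8.09 to 8.29 in B. None of these 11 had an unadjusted p under 0.05. Of 14 MHC presentation genes, 11 were higher (median 0.19). Oligodendrocyte markers were higher in 7 of 8 (median 0.34, 1 called), endothelium markers in 7 of 9 (median 0.15, 1 called), striatum markers in 10 of 11 (median 0.74) and neuron markers in 2 of 11 (median -0.15, 1 called lower). The part of these lists in the Psmb8 difference was not tested.

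A fit of all 39 rats, with dose as a term, compared the experiments with more animals, a choice made after the data were seen. It called 11 of 37 proteasome genes, against 29.6% of all probe sets, and 17 had an unadjusted p under 0.05 (40.3% of all). By pairs it called 11 for C against A (25.9% of all), 7 for C against B (19.6%) and 1 for B against A (1.43%). Without animal 2 at 1 mg/kg of A it called 7 for C against A (22.5% of all). Without animal 4 at 10 mg/kg of C it also called 7 (22% of all). Psma3, an alpha ring gene, had the smallest p. It ran from 9.39 to 9.81 in the 14 rats of A (median 9.60), from 9.32 to 9.83 in the 11 of B (9.62) and from 9.72 to 10.09 in the 14 of C (9.93). The C range overlapped the others only between 9.72 and 9.83, and the difference was 0.32 ± 0.05 for C minus A and 0.31 ± 0.07 for C minus B (adjusted p = 4.56e-05 and 0.00303 in limma). A near-identical gene, Psma3l, shares another Psma3 probe set in the platform table, so its values are uncertain. Psma3, Psma2 and Psmd11 were named after their values were seen.

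The trypsin-like subunit gene Psmb7 was higher in C as well, by 0.20 ± 0.04 over A (adjusted p = 0.000312 in limma), with 11.16 to 11.47 in A and 11.38 to 11.62 in C. The ATPase genes Psmc2 and Psmc5 were higher by 0.23 ± 0.04 and 0.27 ± 0.06 over A (adjusted p = 0.000197 and 0.000549). Psma1 was lower in C than in A, with a difference of -0.42 ± 0.10 (adjusted p = 0.00181), with 10.24 to 10.63 in A and 9.14 to 10.41 in C. Psmb3 was lower in C than in A, with a difference of -0.30 ± 0.06 (adjusted p = 0.00028). Its B minus A difference was -0.33 ± 0.09 (adjusted p = 0.0394), a call lost with scaling to equal medians (0.0855), with the actin ratio in the fit (0.0654) and in 13 of 39 fits without 1 rat (up to 0.203). So the called genes differed in both directions, within the same ring too. The share called, 11 of 37 in the F test, was close to the 29.6% of all probe sets. Differing between experiments was thus not particular to proteasome genes.

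Relative to B, C was higher in Psmd9 by 0.40 ± 0.11, in Psmb8 by 0.48 ± 0.14 and in the ATPase gene Psmc4 by 0.25 ± 0.08 (adjusted p = 0.0107, 0.0163 and 0.0157 in limma). Psma2 was called by the F test alone (adjusted p = 0.0493), and not with scaling to equal medians (0.388). Without vehicle animal 1 of B the calls of Psmd9, Psmb8, Psmc4 and Psmb7 against B were lost. Without the 1 rat of B at 5 mg/kg those of Psma1, Psmb7, Psmd11 and Psmc4 were, and without vehicle animal 2 of C that of Psmb8. In the F test, 8 of the 11 genes stayed called under every alternative run for this fit, while Psma2, Psmb8 and Psmc4 did not. These alternatives were the scaling, the floor, log2(value + 32), the first-repeat arrays left out, the actin ratio, the striatum mean and each rat left out. Psmd11 is one of the 8, though its other probe set went the other way for C minus A (0.34). In the fit of all rats, 10 of 11 striatum markers were higher in C than in A (median 0.36), and among vehicle rats 11 of 11 (median 1.37). With their mean in the fit, the F test called 11 genes, these 8 among them, and C against A called 7 in place of 11 (25.6% of all). The median change over the 37 genes for C minus A was 0.02 against 0.015 over all probe sets. Experiment and anything that went with it, such as the day of the work, cannot be told apart.

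**Figure D4:**
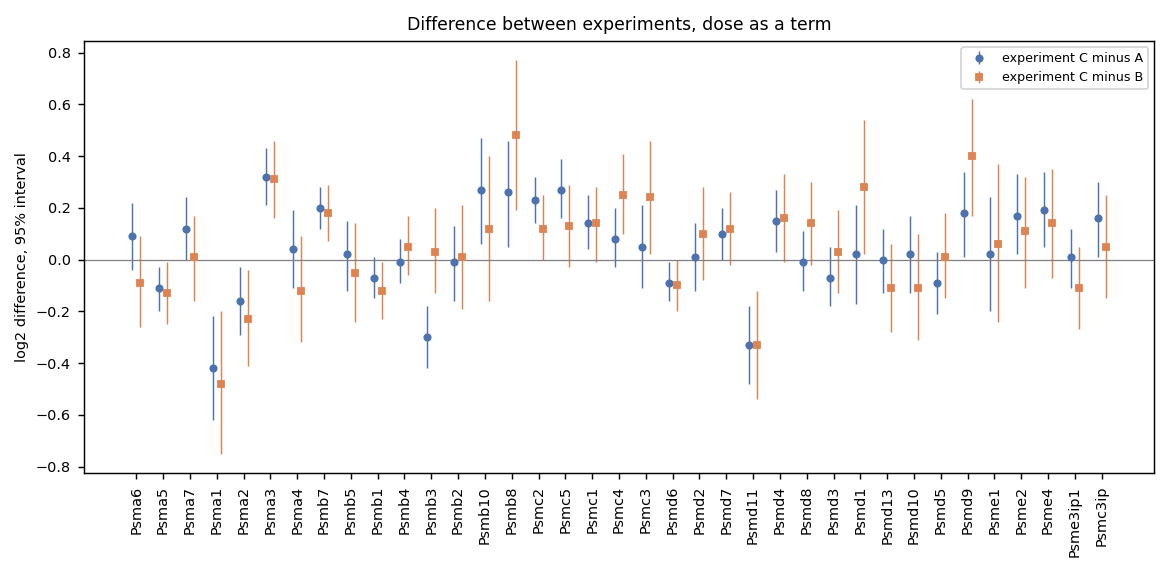
Log2 difference between experiments (vertical axis) of the 37 proteasome genes kept, with 95% intervals, for C minus A (blue circles) and C minus B (orange squares), from a fit of all 39 rats with dose as a term. Psma3 lies above 0 and Psma1 and Psmd11 below 0 in both, and Psmb3 is below 0 only against A.

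Psmd11, a scaffold of the lid, showed opposite answers from its 2 probe sets. The one used gave a C minus A difference of -0.33 ± 0.07 (adjusted p = 0.00119 in limma). Its signal was 10.32 to 10.70 in A and 9.82 to 10.57 in C. The other was higher in C, by 0.34 ± 0.08 over A and 0.77 ± 0.11 over B (adjusted p = 0.00146 and 9.74e-06), at 9.71 to 10.41 in A, 9.10 to 10.22 in B and 10.12 to 10.71 in C. At 30 mg/kg the probe set used differed from vehicle by -0.12 ± 0.13 and the other by 0.56 ± 0.14 (adjusted p = 0.133 in limma). In the rats of B the other gave 10.08, 9.93 and 10.22 at 30 mg/kg against 9.10, 9.87, 9.51 and 9.27. The dosed rats lay above the vehicle rats there, while in the probe set used they ran from 10.33 to 10.61 against 10.35 to 10.61 and overlapped. Of the 3 probe sets of Psme4, the PA200 activator, the one used differed by -0.20 ± 0.13 at 30 mg/kg and another by -0.56 ± 0.17 (adjusted p = 0.674 and 0.268). For C minus A the one used, counted among the 11 calls, was higher by 0.19 ± 0.07, while that other gave -0.35 ± 0.10 (adjusted p = 0.047 and 0.00895 in limma), again in opposite directions.

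Across the 39 rats the inducible genes were compared with each other and with genes of MHC presentation, in 7 pairs. Psmb8 and Psmb9 went together, with Pearson's r = 0.75 and Spearman's rho = 0.70 (permutation p = 1e-05, the smallest that 100000 resamples can give, and 2e-05, both 7e-05 after Benjamini-Hochberg adjustment). Within experiments A, B and C r was 0.65, 0.62 and 0.82, and it was 0.72 without the 2 rats farthest from the median of Psmb8. Taken as deviations from group means it was 0.68. Psmb9 stood at 7.83 in the vehicle rat of C that gave the highest Psmb8 (8.30), and at 5.35 in the vehicle rat of B with one of the lowest (6.93).

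Psmb8 also went with Cd74, the MHC class II invariant chain found in microglia and macrophages, at r = 0.53 and rho = 0.56 (permutation p = 0.00054 and 0.00018, adjusted p = 0.00126 and 0.00042). Within A, B and C r was 0.43, 0.71 and 0.54, and 0.61 without the 2 farthest rats. Psmb9 went with B2m, the light chain of MHC class I, at r = 0.59 and rho = 0.67 (permutation p = 0.0001 and 2e-05, adjusted p = 0.00035 and 7e-05), with 0.63, 0.53 and 0.60 within experiments and 0.56 without the 2 farthest rats. As deviations from group means r was 0.51 for each of these 2 pairs. For Psmb9 with B2m it was then 0.63, 0.18 and 0.56 within A, B and C. The lowest B2m (11.29) was that of animal 1 at 1 mg/kg of C, whose actin ratio was 4.72. Psmb8 with Tap1 gave r = 0.16 and rho = 0.15 (permutation p = 0.324 and 0.358, adjusted the same), and Tap1 itself was dim at a mean of 6.32.

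Psmb8 and Psmb10 gave r = 0.28 and rho = 0.31 (permutation p = 0.0845 and 0.059, adjusted p = 0.0986 and 0.0688), with 0.33, 0.53 and 0.03 within experiments. Psmb7 and Psmb10, its inducible counterpart, gave r = 0.40 and rho = 0.39 (permutation p = 0.0102 and 0.0138, adjusted p = 0.0178 and 0.0241). This did not hold within experiments A and B (-0.20 and -0.08 against 0.53 in C), and r was 0.33 without the 2 farthest rats. As deviations from group means r was 0.32 and rho 0.15 (permutation, adjusted p = 0.0708 and 0.359). Within A, B and C r was then -0.14, 0.34 and 0.67. Animal 1 at 1 mg/kg of C, with the actin ratio of 4.72, had the highest Psmb10 and a high Psmb7 (11.62). Psmb5 and its counterpart Psmb8 gave r = -0.35 and rho = -0.33 (permutation p = 0.0285 and 0.0395, adjusted p = 0.0398 and 0.0553), with -0.04, -0.44 and -0.33 within experiments and -0.37 without the 2 farthest rats. As deviations from group means r was -0.38 and rho -0.32 (permutation, adjusted p = 0.0305 and 0.0845). Within A, B and C r was then -0.18, -0.06 and -0.61, so the relation lay mainly in C.

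**Figure D5:**
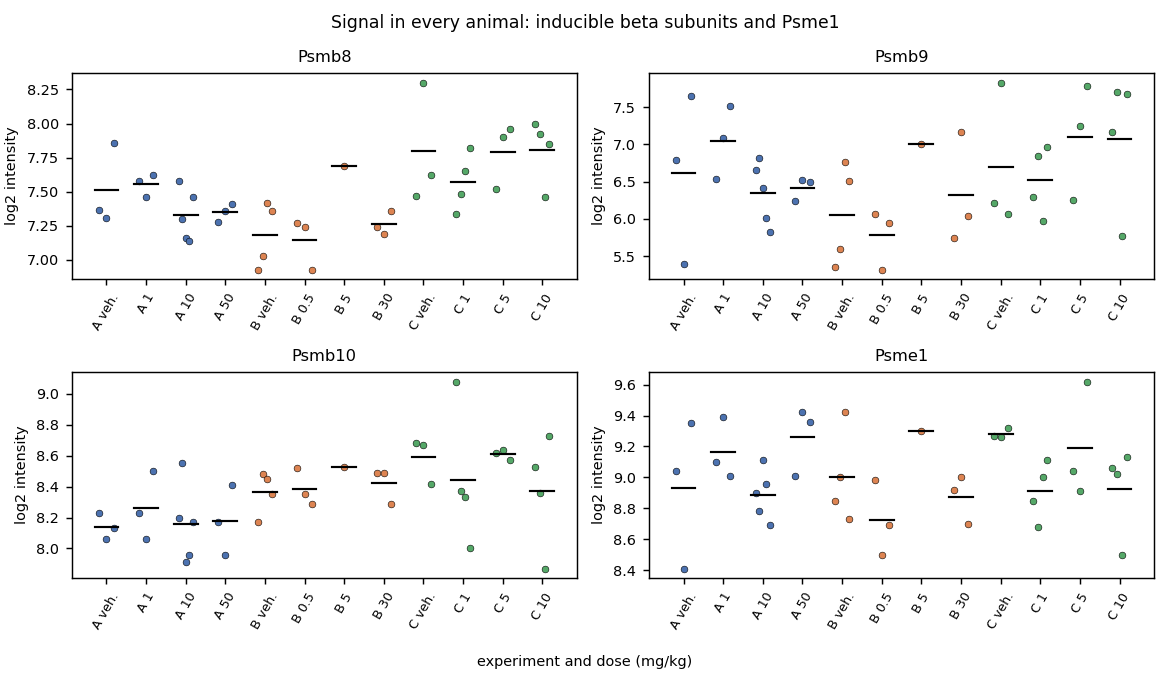
Log2 intensity (vertical axes) of Psmb8, Psmb9, Psmb10 and Psme1 in each of the 39 rats, by experiment and dose in mg/kg (horizontal axes), with group means as bars; blue is experiment A, orange B and green C. Rats with high Psmb8 tend to have high Psmb9 (r = 0.75), and the highest of both belong to the same vehicle rat of C.

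Proteasome genes did not vary as one block between rats. Over the 666 pairs of the 37 genes, the correlation of deviations from group means had a median of 0.0598, against -0.00191 over all pairs of probe sets. It was 0.128 within the standard beta ring and 0.0799 within the ATPase ring. The highest pair was Psmc1 with Psmc3, at 0.66, and the lowest Psma1 with Psmb10, at -0.61. Animal 1 at 1 mg/kg of experiment C, the rat with an actin ratio of 4.72, had the lowest Psma1 of all rats (9.14) and the highest Psmb10 (9.08). Without it these pairs stood at 0.56 and -0.37.

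Genes around the proteasome were read from lists of its assembly and regulation, of ubiquitin and its enzymes, of MHC presentation and of the interferon response. At every dose 0 genes of each passed, and the same 0% and 0.018% of all probe sets apply. Psmf1, which encodes the inhibitor PI31, was the nearest in the first list of 14 genes kept, at 0.52 ± 0.16 at 30 mg/kg (adjusted p = 0.268 in limma) and 0.35 ± 0.16 at 50 mg/kg (adjusted p = 0.561). The ubiquitin receptor gene Adrm1 stood at -0.75 ± 0.30 at 50 mg/kg (adjusted p = 0.507). Of the 14, 2 higher and 1 lower had p under 0.05 at 50 mg/kg, where 7.99% of all probe sets did, and the list's median was 0.10.

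Of 35 ubiquitin genes kept, 1 higher and 3 lower had p under 0.05 at 30 mg/kg (9.25% of all probe sets) and 1 lower at 50 mg/kg (7.99%), with a median of -0.03 at both. The deubiquitinase gene Usp7 stood at -0.53 ± 0.17 and -0.52 ± 0.17 at those doses (adjusted p = 0.304 and 0.355 in limma), and the ligase gene Huwe1 at 0.18 ± 0.07 at 30 mg/kg. Of 14 MHC genes kept, 12 were above vehicle at 5 mg/kg, with a median of 0.21, and 2 had p under 0.05 (2.48% of all probe sets). At 50 mg/kg 1 had p under 0.05 (7.99%), the peptide-loading gene Pdia3 (0.40 ± 0.13, adjusted p = 0.383 in limma), and the list's median was 0.07. Calr, which encodes a chaperone of the same step, stood at -0.19 ± 0.06 at 10 mg/kg (adjusted p = 0.999). Of 9 interferon genes kept, 1 lower had p under 0.05 at 50 mg/kg (7.99%), Ifit3 (-0.42 ± 0.16, adjusted p = 0.467), with a list median of 0.01.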

How the data were processed

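RNA from each frontal lobe was hybridised to an Affymetrix rat array, and the deposited table holds 1 linear intensity per probe set and array as the authors summarised it, by software not given in the sources used here. Of 15923 probe sets, 57 controls were set aside. Columns with a median correlation of at least 0.5 with the others were used (39 of 46), since 7 columns did not follow the row order. The deposited intensities were brought to a common median, values below the 5th percentile (10.72) were raised to it, and the result was quantile normalised and taken to log2. Probe sets with a mean at or above the 30th percentile were kept (11106).

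Differences were fitted in limma 3.58.1 (R 4.3.3; lmFit, and eBayes with a trend) with experiment as a term, or by experiment and dose, with Benjamini-Hochberg adjustment over all probe sets kept and a threshold of 0.05 (two-sided). P-values within correlations came from 100000 permutations, two-sided, in scipy 1.17.1 (python 3.11.15), adjusted over the 7 pairs run. An 8th pair, with Psmb6, and a comparison of subunit protein sequences were not run. The number of arrays limits the precision. The model was tested on simulated data, where 8 false calls arose among 11106 genes at 50 mg/kg. Each array was taken as a separate animal, which the sample titles do not state. They also do not say whether arrays labelled as a first repeat are repeat hybridisations or other rats.

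Symbols came from the platform table, in which 12783 probe sets name a single gene, 312 more than 1 gene and 2771 no gene, and 12748 of the first matched the gene table. Psmb6 and Psme3 share their probe sets with other genes and were not analysed here, nor were Psma8, Psmb11, Psmc6, Psmd12 and Psmd14. The members, gene lists and tests were chosen with earlier results of these data known. Named by rule were the catalytic, inducible and PA28 genes, up to 5 genes with the smallest p at each dose and among vehicle rats, the highest and lowest signal in each class, the largest and smallest SD, and up to 3 genes of each other list, and others were named after their values were seen. TTCNNNGAA and the interferon-stimulated core were added to the motif search after the data were seen. Alternatives changed the scaling, floor, filter, probe set per gene, prior, arrays, block and covariates. The fit of all rats was rerun under only some of these.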

Additional observations from a re-analysis of the deposited data

Results flagged for a closer look

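In groups of 4 or 5 rats, a rat was singled out by its gap to the nearest other, taken as a share of the group's range. The share had to exceed Dixon's 95% critical value. Among 92 combinations of 23 named genes and 4 groups there were 4, and chance gives about 1 in 20. In experiment C at 10 mg/kg, Psmb3 stood at 10.64 in animal 3 against 10.27 to 10.32 in the others. In the same animal the PA28 gene Psme1 stood at 8.50 against 9.02 to 9.13. In animal 2 of that group the chaperone gene Psmd9 stood at 8.24 against 8.43 to 8.45. Animals 2 and 3 are both labelled as a first repeat. In experiment A at 10 mg/kg, the ATPase gene Psmc4 stood at 10.84 in animal 3 against 10.63 to 10.66.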

How the results depend on the processing

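No proteasome gene was called at any dose under the alternatives run, each rat left out in turn included, and the difference of Psma1 at 5 mg/kg reversed to 0.03 without experiment C. The count called for C against B among vehicle rats was 1. It was 3 with scaling to equal medians, 0 with the filter at the 50th percentile and 0 without experiment A, and 0 to 3 without 1 rat. There Psmb8 had an adjusted p of 0.0617 without experiment A and 0.0515 with the actin ratio, and 0.014 to 0.239 without 1 rat (differences 0.36 to 0.77). The vehicle F test called 0, and 1 without the arrays labelled as a first repeat, 1 with the actin ratio, 0 to 1 without 1 rat, and 11 by the fit of all rats. C against A called 1 with the actin ratio. The vehicle counts under these alternatives are given without shares of all probe sets, so they do not tell proteasome genes from others. The causes were not tested. In its F test the fit of all rats called 8 to 14 without 1 rat, against 25.9% to 32% of all probe sets. For C against B it called 3 of 37 without vehicle animal 1 of B (15.4% of all). It called 3 too without the 5 mg/kg animal of B (13.2%), against 7 with all rats (19.6%). With the animal number as a replicate block no gene was called either, and Psmc3 at 30 mg/kg was 0.40 (adjusted p = 0.609 in limma). The labels do not say what the numbers stand for. Of 43 same-numbered pairs, 9 had a correlation over 0.1 (median 0.00352, range -0.394 to 0.299), which cannot settle whether they pair the rats. Vehicle comparisons could not be fitted with the block. Dim probe sets such as that of Psmb9 are limited by their signal.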
